A study of Sus scrofa with 9 samples.

Results

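The genes described here are 7 that encode proteins of the lipid droplet and of its formation: CIDEA, CIDEB, CIDEC, PLIN1, PLIN2, FITM1 and FITM2. They were taken as every array probe whose RefSeq accession belongs to one of these symbols in the pig RefSeq gene table. Each was represented by exactly 1 probe, so the set holds 7 of the 43603 probes and 7 of the 3196 named genes on the array. Their transcripts were measured in longissimus dorsi, a back muscle, of Bama minipigs, a small pig breed used as an obesity model. The HFHSD group (6 animals) was given a high-fat high-sucrose feed made of 53% basal diet, 37% sucrose and 10% lard. The CD group (3 animals) was given standard pig chow. Feeding was restricted, scaled to body weight, began at an age of 6 months and lasted 23 months. The pigs were gonadally intact and of both sexes. The sex of each animal is not used here. Each animal gave 1 single-colour Agilent array. The growth protocol counts 6 CD animals and the series design 3, which is the number of CD arrays.

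A lipid droplet is a core of triglyceride and sterol ester under a single layer of phospholipid and protein. FITM proteins of the endoplasmic reticulum help new droplets form. Perilipins (PLIN) coat the droplet and control the access of lipases to it. CIDE proteins gather where droplets touch and pass lipid from the smaller droplet to the larger. In mammals CIDEA, CIDEC and PLIN1 are best known from fat cells, CIDEB from liver and intestine, PLIN2 from nearly all cells that store lipid, FITM1 from skeletal and heart muscle, and FITM2 from many tissues including fat.

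The tissue was whole muscle, and all 15 measured skeletal muscle markers, among them ACTA1, CKM and MYH7, were well above background on all 9 arrays. The share of probes that the scanner software called well above background was 36.8% on CD 1 and ran from 51.2% to 68.9% on the other arrays. The negative control probes of CD 1 also had the highest SD, 5.66 against at most 2.65 elsewhere. CD 1 stands apart in this respect, and results that it moves are also given without it. The arrays came from 3 slides. HFHSD 5 and HFHSD 6 shared slide 1, HFHSD 1, HFHSD 3, HFHSD 4 and CD 1 shared slide 2, and HFHSD 2, CD 2 and CD 3 shared slide 3. A difference within slide 2 thus rests on CD 1 as the only CD array. Within slide 3 it rests on HFHSD 2 as the only HFHSD array.

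Values are log2 of the processed signal minus the 75th percentile of the same array, so that 0 is the 75th percentile of that array. Differences are HFHSD minus CD on this log2 scale, from limma, with the standard error (SE) of the fit, and a gene was called at an adjusted p under 0.05 over all 27922 tested probes. All 7 genes entered the test, which needed a signal well above background on 3 arrays. CIDEA, CIDEB, PLIN2 and FITM1 were above background on all 9, and PLIN1 passed through its HFHSD arrays alone. Of the 7, 1 was called, CIDEA, and 6 were not. Over all tested probes 1.24% were called, 0.695% as higher and 0.541% as lower in HFHSD, and of the named genes, by their brightest probe, 0.995%. Of all calls 56.2% were higher in HFHSD, and 71.3% with normexp background correction and percentile scaling. By the size of the difference 3 genes were higher (CIDEA, CIDEC and PLIN1) and 4 lower (CIDEB, PLIN2, FITM1 and FITM2), with a median of -0.33, against -0.025 over all tested probes. PLIN1 enters this count and median, but its direction is not measured, since none of its CD values was above background. The measured values did not overlap for 3 genes, CIDEA, CIDEC and FITM2, and for 10.9% of all tested probes, but for CIDEC and FITM2 some of these values are below background. Those 3 genes also had an unadjusted p under 0.05, as had 16.5% of all tested probes. For PLIN1 no p is given, since it had no CD array above background.

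**Figure D1:**
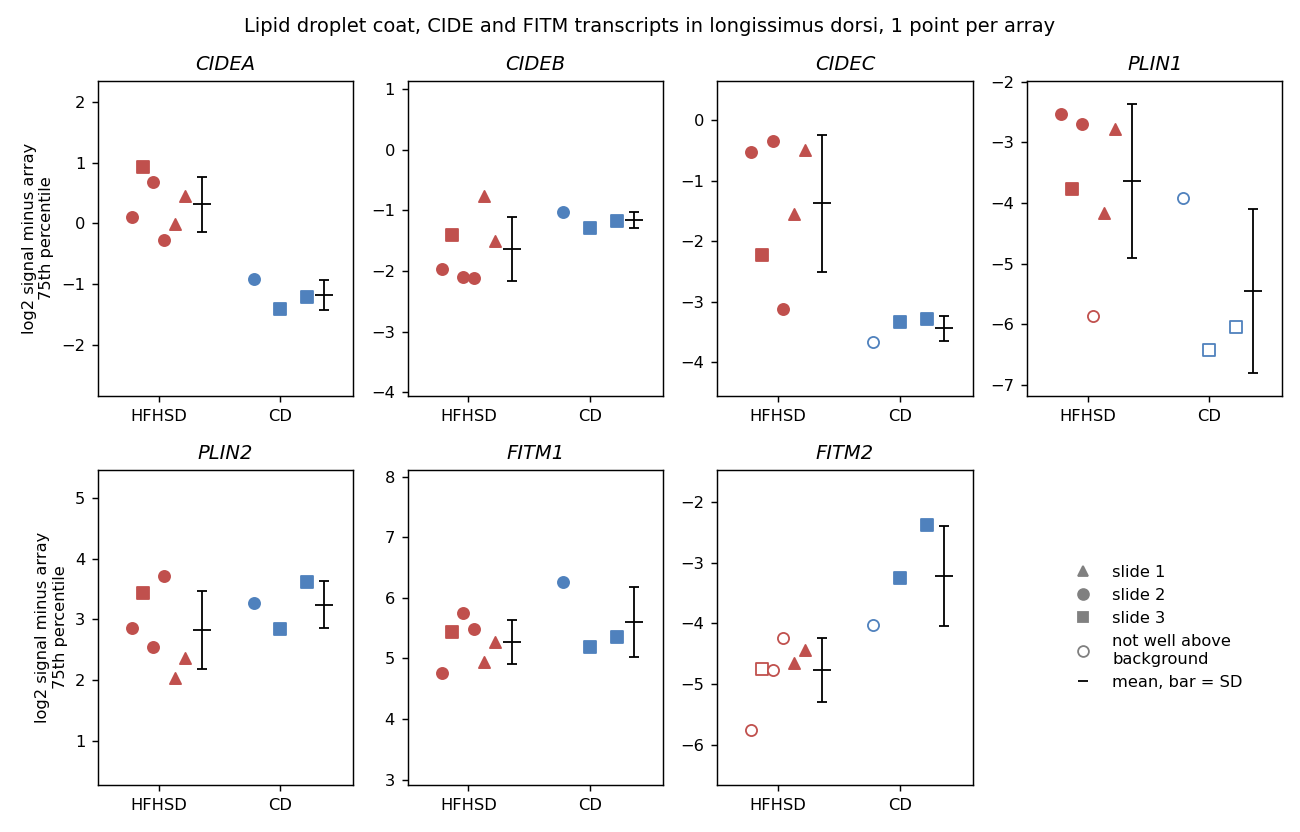
Value of each gene on every array (vertical axis, log2 signal minus the array's 75th percentile, the same span in each panel), with HFHSD left of CD, open symbols for a signal not well above background, and the mean and SD at the right of each group. For CIDEA the 6 HFHSD arrays, from -0.27 to 0.93, all lie above the 3 CD arrays, from -1.41 to -0.91; CIDEC and PLIN1 spread widely within HFHSD.

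CIDEA, which promotes the growth of droplets in brown and other fat cells, rose in HFHSD muscle. The values were 0.11, 0.93, 0.68, -0.27, -0.015 and 0.45 on HFHSD 1 to 6, against -0.91, -1.41 and -1.21 on CD 1 to 3. Every HFHSD array was above every CD array, and the lowest HFHSD value lay 0.65 above the highest CD value. Before any scaling between arrays, the processed signal ran from 141 to 401 in HFHSD, against 70.8 to 88.0 in CD, so the groups were also apart on the scanner's own scale. The mean was 0.31 ± 0.45 (SD, n = 6) in HFHSD and -1.18 ± 0.25 (SD, n = 3) in CD. The difference was 1.49 (SE 0.28, 95% interval 0.86 to 2.12, limma adjusted p = 0.0380), which is 2.81-fold. In whole tissue, more cells of a type and more RNA per cell cannot be told apart. CIDEA stood in place 267 of the 27922 probes by p, and 2.25% of all tested probes had a difference at least as large.

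The size of the CIDEA difference was steadier than its call. Leaving out single arrays gave differences from 1.37 to 1.62, with adjusted p from 0.0351 to 0.196, and the call held in 1 of these 9 fits, the fit without HFHSD 4. With slide as a fixed block the difference was 1.63 (adjusted p = 0.0890), and with slide as a random block 1.56 (adjusted p = 0.0310). The difference was 1.09 within slide 2 and 2.24 within slide 3, and without CD 1 it was 1.62 (adjusted p = 0.0962). With normexp background correction and percentile scaling it shrank to 0.96 (adjusted p = 0.183). All 23 alternative fits kept CIDEA higher in HFHSD, and 11 of them called it.

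CIDEC, the protein of large unilocular droplets in white fat cells, was not called, and its HFHSD values spread widely. It was at -0.53, -2.22, -0.34, -3.13, -1.54 and -0.49 on HFHSD 1 to 6, against -3.67, -3.34 and -3.29 on CD 1 to 3. HFHSD 1, HFHSD 3 and HFHSD 6 were high and close together, HFHSD 4 lay 0.16 above the highest CD array, and the CD arrays were tight. The spread between the highest and the lowest HFHSD animal was 6.88-fold, against 2.28-fold for CIDEA. The mean was -1.37 ± 1.13 (SD, n = 6) in HFHSD and -3.43 ± 0.21 (SD, n = 3) in CD, a difference of 2.06 (SE 0.59, 95% interval 0.74 to 3.38, limma adjusted p = 0.115).

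A single animal decided the CIDEC call. Without HFHSD 4 the difference was 2.41 with an adjusted p of 0.0431, and in the other leave-one-out fits the adjusted p ran up to 0.324. CIDEC was detected above background on 6 of 6 arrays of HFHSD and 2 of 3 of CD. On CD 1 its value lay below -2.03, the lowest signal called above background there, so the CD 1 value is only a bound, and whether HFHSD 4 lies above it is not known. Without CD 1 the difference was 1.94 (adjusted p = 0.285), and with dim values set to the lowest signal above background it was 1.51 (adjusted p = 0.286). The difference was 1.09 within slide 3, and 0.49 (adjusted p = 0.612) with normexp and percentile scaling. Within slide 2 it was 2.34, but CD 1, only a bound, is the only CD array there, so 2.34 is no measured difference.

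CIDEB, which in liver takes part in loading lipid onto lipoproteins, was not called, and its estimate was on the lower side. It was at -1.98, -1.40, -2.10, -2.11, -0.77 and -1.50 on HFHSD 1 to 6, against -1.03, -1.29 and -1.17 on CD 1 to 3. HFHSD 5 was above all CD arrays and the other 5 HFHSD arrays were below them, so the groups overlapped through this 1 array. The mean was -1.64 ± 0.53 (SD, n = 6) in HFHSD and -1.16 ± 0.13 (SD, n = 3) in CD. The difference was -0.48 (SE 0.31, 95% interval -1.16 to 0.20, limma adjusted p = 0.497), and without HFHSD 5 it was -0.65 (adjusted p = 0.183). It was -1.03 within slide 2 and -0.17 within slide 3.

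PLIN1, the coat protein that guards the droplets of fat cells, was near the limit of detection. The scanner software detected it on 5 of 6 HFHSD arrays, HFHSD 4 being the exception, and on 0 of 3 CD arrays. Its values were -2.54, -3.78, -2.70, -5.86, -4.17 and -2.78 on HFHSD 1 to 6, against -3.91, -6.42 and -6.05 on CD 1 to 3. The groups overlapped, because HFHSD 4 lay within the CD range and CD 1 was above HFHSD 4 and HFHSD 5. On CD arrays PLIN1 has only an upper bound, the higher of its own value and the lowest signal above background. The mean of these bounds was -3.56, and the measured means were -3.64 ± 1.27 (SD, n = 6) in HFHSD and -5.46 ± 1.35 (SD, n = 3) in CD. Since the HFHSD mean did not exceed that bound, no fold is given over the 3 CD arrays. CD 1, where the lowest signal above background was higher than on any other array, decided this. Over CD 2 and CD 3 alone the bound was -4.32, and the HFHSD mean was 1.61-fold above it. That mean includes HFHSD 4, itself not above background, so 1.61 is no firm lower limit. With dim values set to the lowest signal above background on all arrays, the difference was 0.26.

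PLIN2, the perilipin of droplets outside fat cells and of muscle fibres, was bright on every array and was not called. It was at 2.85, 3.43, 2.55, 3.71, 2.03 and 2.37 on HFHSD 1 to 6, against 3.28, 2.84 and 3.61 on CD 1 to 3. The highest array was HFHSD 4, which was the lowest HFHSD array for CIDEA, CIDEB, CIDEC and, by a value not above background, PLIN1. The mean was 2.82 ± 0.64 (SD, n = 6) in HFHSD and 3.24 ± 0.39 (SD, n = 3) in CD. The difference was -0.42 (SE 0.38, 95% interval -1.26 to 0.42, limma adjusted p = 0.659), an interval that holds changes from 0.417-fold to 1.34-fold. It was -0.24 within slide 2 and 0.20 within slide 3. It was -0.029 with slide as a fixed block, -0.11 without slide 1 and -0.23 without CD 3, and its sign turned to 0.050 with normexp and percentile scaling.

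FITM1, the droplet-forming protein of skeletal muscle, was also bright on every array and was not called. It was at 4.77, 5.43, 5.74, 5.48, 4.94 and 5.27 on HFHSD 1 to 6, against 6.26, 5.19 and 5.36 on CD 1 to 3. CD 1 lay above the HFHSD range, and CD 2 and CD 3 lay inside it. The mean was 5.27 ± 0.36 (SD, n = 6) in HFHSD and 5.60 ± 0.57 (SD, n = 3) in CD. The difference was -0.33 (SE 0.30, 95% interval -0.995 to 0.33, limma adjusted p = 0.656). Without CD 1 it was -0.0051 (adjusted p = 0.997), and with normexp and percentile scaling its sign turned to 0.19. It was -0.93 within slide 2 and 0.15 within slide 3.

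FITM2, its more widely expressed relative, was dim, had lower values in HFHSD and was not called. It was at -5.75, -4.76, -4.76, -4.24, -4.66 and -4.44 on HFHSD 1 to 6, against -4.03, -3.25 and -2.38 on CD 1 to 3. All measured HFHSD values lay below all measured CD values, with a gap of 0.21 between HFHSD 4 and CD 1, neither of them above background. FITM2 was detected above background on HFHSD 5 and HFHSD 6 (2 of 6) and on CD 2 and CD 3 (2 of 3), so the other values are only bounds. The highest bound of an HFHSD array was -3.49, below the detected values of CD 2 and CD 3, while on CD 1 FITM2 could have been anywhere up to -2.03. The mean was -4.77 ± 0.52 (SD, n = 6) in HFHSD and -3.22 ± 0.83 (SD, n = 3) in CD, a difference of -1.55 (SE 0.40, 95% interval -2.44 to -0.65, limma adjusted p = 0.0902). It was called only with array weights (-1.67, adjusted p = 0.0366). With dim values set to the lowest signal above background it was -1.55 (adjusted p = 0.0699). Without CD 1 it was -1.95 (adjusted p = 0.0978), and within slide 3 -1.94. Within slide 2 it was -0.89, but FITM2 was not above background on any array of that slide, so this is no measured difference. Quantile normalisation brought the difference over all arrays to -0.89 (adjusted p = 0.545).

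**Figure D2:**
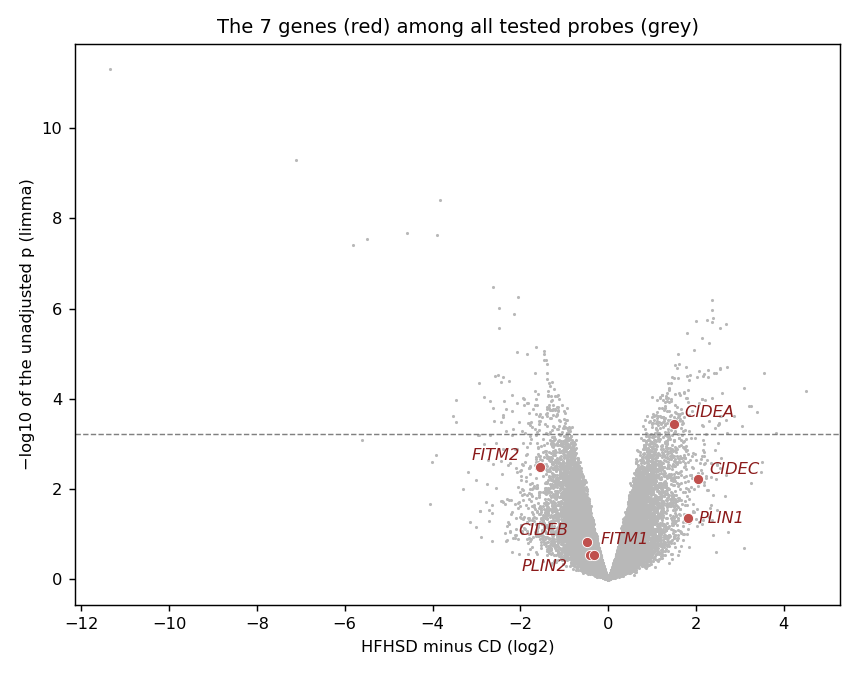
Diet difference (horizontal axis, HFHSD minus CD in log2) against −log10 of the unadjusted limma p (vertical axis) for all 27922 tested probes in grey and the 7 genes in red, with a dashed line at the adjusted threshold. CIDEA, at 1.49, is the only one of the 7 above the line; CIDEB, PLIN2 and FITM1 lie in the dense centre.

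**Figure D3:**
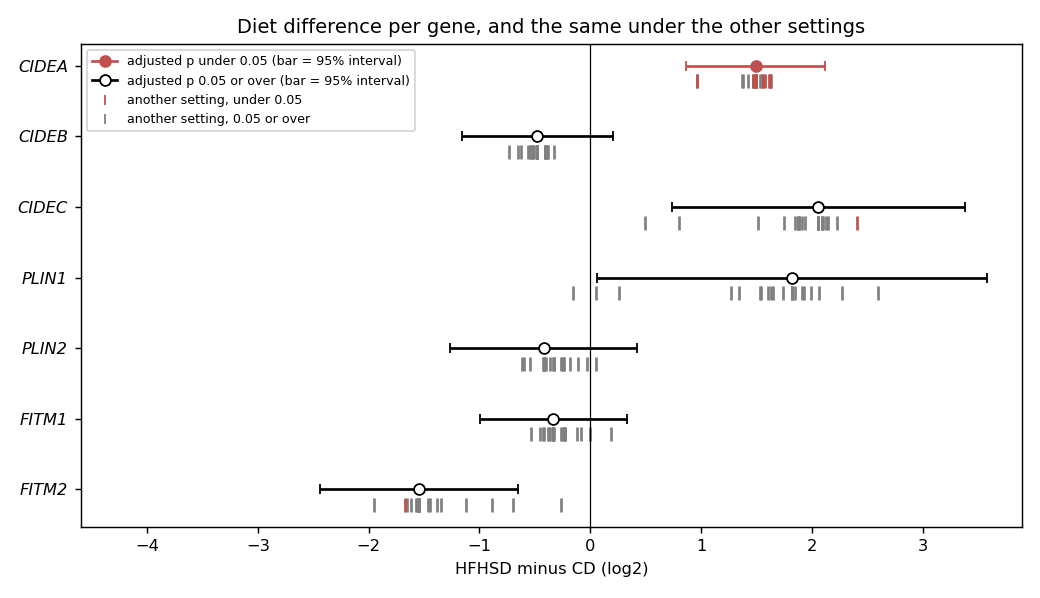
HFHSD minus CD in log2 (horizontal axis) for each gene with its 95% interval, and below it a tick for each of the other settings in which the gene was tested. CIDEA stays between 0.96 and 1.63 in all 23, while FITM2 ranges from -1.95 to -0.26.

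Members of a family can also be set against each other within an array, which no scaling factor of an array can move. The level of such a difference depends on the probes, and only its shift between the diets is read. These 5 comparisons were chosen after the values were seen and were tested by an exact two-sided permutation test over all 84 splits of the arrays, whose smallest p is 0.0119. The adjustment over the 5 does not cover that choice, so these p are no separate support for the differences of the single genes. CIDEA minus CIDEB was 2.09, 2.33, 2.78, 1.84, 0.75 and 1.95 on HFHSD 1 to 6, against 0.11, -0.12 and -0.042 on CD 1 to 3. Every HFHSD array lay above every CD array. The shift was 1.97 (exact permutation p = 0.0119, adjusted over the 5 comparisons 0.0595), from means of 1.96 ± 0.68 (SD, n = 6) in HFHSD and -0.015 ± 0.12 (SD, n = 3) in CD. Without CD 1 it was 2.04.

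CIDEC minus CIDEB also did not overlap between the diets and was shifted by 2.54 (exact permutation p = 0.0238, adjusted 0.0595), with HFHSD arrays from -1.02 to 1.76 and CD arrays from -2.64 to -2.05. CIDEA minus CIDEC overlapped between the diets and was shifted by -0.56 (exact permutation p = 0.405, adjusted 0.405), and by -0.31 without CD 1. For PLIN1 minus PLIN2 no shift or p is given, since PLIN1 had no CD array above background, though it counts among the 5. FITM2 minus FITM1 was shifted by -1.21 (exact permutation p = 0.0595, adjusted 0.0992), which rests on a gene at or near background. Without CD 1 the shift of FITM2 minus FITM1 was -1.95. None of the 5 passed after adjustment, and with a smallest p of 0.0119 no comparison could have passed by itself.

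**Figure D4:**
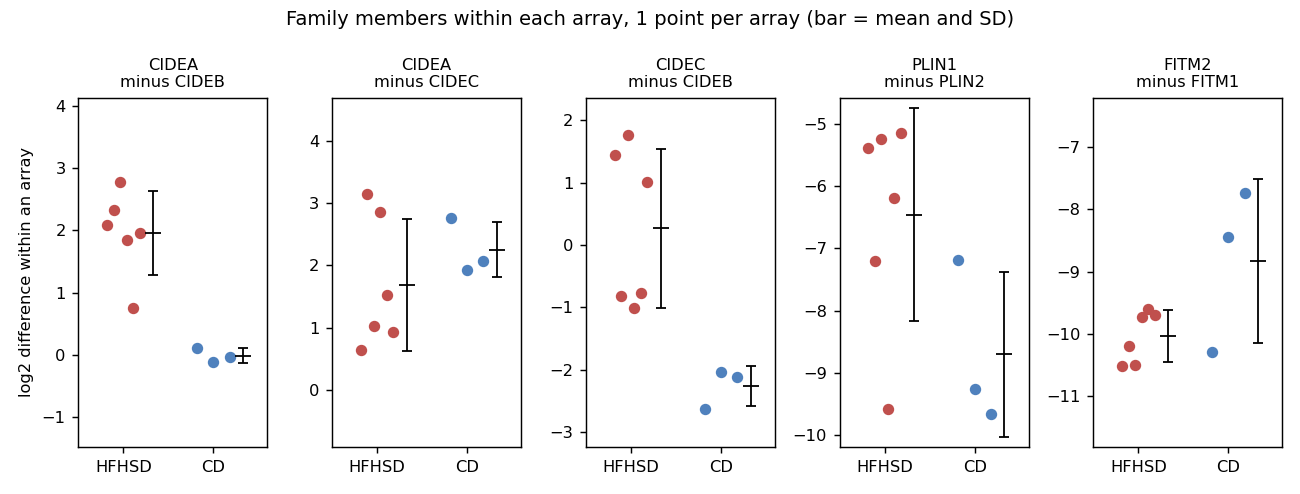
Log2 difference between family members within each array (vertical axis), HFHSD left of CD, 1 point per array with the mean and SD. CIDEA minus CIDEB runs from 0.75 to 2.78 in HFHSD and from -0.12 to 0.11 in CD. The measured values of CIDEC minus CIDEB do not overlap either, but CIDEC was not above background on CD 1.

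The 6 HFHSD animals did not carry the fat-cell genes alike. HFHSD 4 was the lowest of them for CIDEA and CIDEC, and for PLIN1 by a value not above background. HFHSD 2 was the highest for CIDEA and the second lowest for CIDEC, so the order of the animals differed between these relatives. Relations among the 7 genes and the mean of the adipocyte markers were computed within the 6 HFHSD arrays, 28 in all, and none passed after adjustment. With 6 arrays, the smallest exact p is too large for any relation to pass by itself over 28. That none passed was thus largely fixed by the design. CIDEC and PLIN1 gave Pearson's r = 0.94 (exact permutation p = 0.0278, adjusted 0.519) and Spearman's rho = 0.77 (exact permutation p = 0.103, adjusted 0.830), and r = 0.97 without the 2 arrays farthest from the median of CIDEC. PLIN1 was not above background on HFHSD 4, so its value there is only a bound. Among the arrays kept for r = 0.97, HFHSD 5 lay apart from HFHSD 1, HFHSD 3 and HFHSD 6 in both genes, so that value rests on HFHSD 5. CIDEA and CIDEC gave r = 0.34 (exact permutation p = 0.486) and rho = 0.43 (exact permutation p = 0.419). CIDEC and the adipocyte marker mean gave r = 0.88 (exact permutation p = 0.0556, adjusted 0.519) and rho = 0.66 (exact permutation p = 0.175, adjusted 0.830), but r = -0.26 without the 2 farthest arrays, so that relation rests on those arrays. CIDEA and the adipocyte marker mean gave r = 0.053 (exact permutation p = 0.911) and rho = 0.086 (exact permutation p = 0.919). No slide holds more than 3 HFHSD arrays, too few to repeat this within a slide.

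Markers of fat cells, with the 7 genes left out, were read beside these results. Of 16 listed, 11 were tested, 7 higher and 4 lower in HFHSD, with a median difference of 0.33. The 4 lower, listed after their values were seen, were PCK1 (-1.75), RETN (-0.77), GPD1 (-0.24) and ADRB3 (-0.15). Without CD 1, PCK1 differed by 0.028 and GPD1 by 0.025. Without CD 1, 9 were higher, with a median of 0.25. By the brightest probe of each, limma called 0, while 3 had an unadjusted p under 0.05, all higher. TUSC5, a fat-cell protein of glucose transporter traffic, had 1 of its 2 probes called (3.26, SE 0.54, adjusted p = 0.0286), detected on 6 of 6 HFHSD and 1 of 3 CD arrays, while its brighter probe differed by 0.33 (adjusted p = 0.809). The summed level of the whole list, in multiples of the array's 75th percentile, ran from 467 to 794 in HFHSD and from 524 to 857 in CD. The 857 was CD 1, and CD 2 and CD 3, at 536 and 524, were below 5 of the 6 HFHSD arrays. GPD1, a glycerol phosphate enzyme that muscle also expresses, made up 53.0% to 82.8% of the sum in HFHSD and 77.9% to 85.9% in CD. The 5 defining markers, ADIPOQ, LEP, RETN, ADRB3 and TUSC5, summed to between 1.86 and 10.3 in HFHSD and between 2.04 and 2.76 in CD. The lowest HFHSD sum was that of HFHSD 4, below every CD array, and the other 5 HFHSD arrays were above every CD array. ADIPOQ and TUSC5 were the brightest of the 5, with HFHSD means of 1.44 and 0.85, against -0.81 for LEP, -4.01 for RETN and -4.62 for ADRB3. The sum therefore says little about RETN and ADRB3, both lower in HFHSD. RETN was well above background on 3 of 6 HFHSD and 2 of 3 CD arrays, and ADRB3 on 2 of 6 and 1 of 3.

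ADIPOQ, which encodes adiponectin, a hormone made by fat cells, was at 2.37, 0.64, 2.26, -0.93, 1.71 and 2.59 on HFHSD 1 to 6, against -1.13, -1.24 and -0.71 on CD 1 to 3. HFHSD 4 was within the CD range, as it was close to it for CIDEC. Its difference was 2.47 (SE 0.71, limma adjusted p = 0.113). PPARG, the nuclear receptor that drives fat cell differentiation, was at 0.60, 0.20, 0.73, -0.32, 0.55 and 1.05 on HFHSD 1 to 6, against -0.45, -0.43 and -0.59 on CD 1 to 3, a difference of 0.96 (SE 0.28, adjusted p = 0.119). LIPE, the hormone-sensitive lipase, was highest on HFHSD 1 and HFHSD 4 (7.92 and 7.86) and differed by 1.20 (SE 0.52, adjusted p = 0.290). LEP, which encodes leptin, differed by 1.01 (SE 0.54, adjusted p = 0.399), and by 0.38 without CD 1. The part of fat cells within the muscle samples in the values of CIDEA, CIDEC and PLIN1 was not tested.

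**Figure D5:**
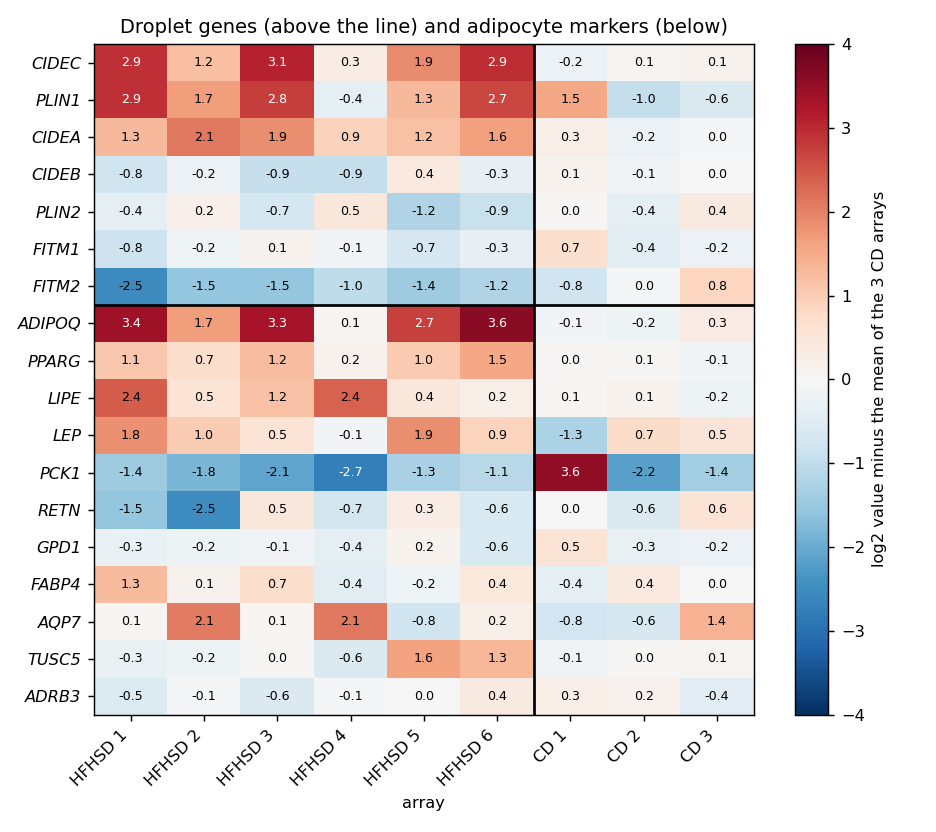
Log2 value of each gene on each array minus the mean of its 3 CD arrays (colour and printed number), with the 7 droplet genes above the line and the 11 tested adipocyte markers below it in order of p. Among HFHSD arrays CIDEC, PLIN1 and ADIPOQ are highest on HFHSD 1, HFHSD 3 and HFHSD 6 and lowest on HFHSD 4, where PLIN1 is below its CD mean. The other markers do not all share this order. PPARG, LEP, PCK1, FABP4 and TUSC5 are also lowest on HFHSD 4, but AQP7 is highest and LIPE second highest there. TUSC5 is highest on HFHSD 5. PLIN1 was not above background on HFHSD 4 or on any CD array.

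Other cell types gave no call among their markers. Limma called 0 of 6 macrophage markers (0 at an unadjusted p under 0.05, 0 higher and 6 lower), 0 of 3 endothelial markers (0 unadjusted), 0 of 4 fibroblast markers (1 unadjusted, higher) and 0 of 4 hepatocyte markers (1 unadjusted, higher). Without CD 1, 2 macrophage markers were higher, and the median of that list moved from -0.24 to -0.030. Of the hepatocyte markers 4 were higher and 0 lower, and 3 were higher without CD 1. The endothelial list had 2 higher and 1 lower, and the fibroblast list 2 and 2. The brown or beige fat list had 2 tested genes, DIO2 at -1.27 (adjusted p = 0.202) and PPARGC1A at -1.47 (adjusted p = 0.321). Of the skeletal muscle markers 3 were higher and 12 lower, with a median of -0.17 and of -0.0091 without CD 1, and limma called 0 of the 15 (2 at an unadjusted p under 0.05, both lower). Blood markers were not analysed here.

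Among other proteins of the droplet, 9 of 25 listed genes were tested, 3 higher and 6 lower in HFHSD, with a median of -0.18. Limma called 0 of them, and 3 had an unadjusted p under 0.05. ABHD5, the activator of the lipase PNPLA2 that PLIN1 holds back, was at 0.67 ± 0.42 (SD, n = 6) in HFHSD and 1.44 ± 0.42 (SD, n = 3) in CD, a difference of -0.76 (SE 0.29, adjusted p = 0.222). PNPLA2, which starts triglyceride breakdown, differed by 0.28 (SE 0.24, adjusted p = 0.642), and CAV1, the coat protein of caveolae that also binds droplets, by -0.59 (SE 0.26, adjusted p = 0.301). PLIN3 and PLIN5 are named after their values were seen, as relatives of PLIN1 and PLIN2, and neither was called. PLIN3, found in most tissues, differed by -0.13 (adjusted p = 0.846), and PLIN5, the perilipin of oxidative tissue, by -0.23 (adjusted p = 0.916) with HFHSD values from -4.14 to -1.18. PLIN5 was above background on 4 of 6 HFHSD and 2 of 3 CD arrays, and the -4.14, on HFHSD 1, was not. Without CD 1 its difference was -0.61.

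Of the enzymes that make the stored triglyceride, 15 of 18 were tested, 7 higher and 8 lower, and limma called 0 by their brightest probe, with 7 at an unadjusted p under 0.05. With slide as a fixed block 1 was called, LPIN2 (adjusted p = 0.0499), named after its value was seen. LPIN2 was above background on 1 of 6 HFHSD and 2 of 3 CD arrays, and its difference was -1.15, or -0.73 without CD 1. DGAT2, which adds the last fatty acid, differed by 1.47 (adjusted p = 0.0747), and DGAT1, which does the same step, by -0.72 (adjusted p = 0.0899). SCD, which desaturates stearate and palmitate, differed by 2.43 (adjusted p = 0.0656), and 1 of its 8 probes was called. AGPAT2, which makes phosphatidic acid, had a difference of -0.95 (limma adjusted p = 0.0918). Transcription factors known to drive droplet genes had 7 tested members, of which only PPARG was higher. Limma called 0, with 2 at an unadjusted p under 0.05, PPARG and CEBPB (-1.03, adjusted p = 0.152).

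The named genes most like each droplet gene were taken by the root mean square distance in log2 between profiles over the 9 arrays, each centred on its own mean, among 2606 other genes. For CIDEC the nearest was ADIPOQ, at 0.36, followed by APOE at 0.49 and ALDOC at 0.50, where the profile of CIDEC itself had an SD of 1.29. The nearest to CIDEA were EGF (0.35), DMP1 (0.38) and AMT (0.38), with an SD of 0.79 for CIDEA, so the nearest genes of CIDEA and CIDEC were not the same. Of these, EGF, an epidermal growth factor (1.30, adjusted p = 0.0304), DMP1, a matrix protein of bone (1.37, adjusted p = 0.0254), APOE, an apolipoprotein (1.84, adjusted p = 0.0455), and ALDOC, an aldolase of glycolysis (2.22, adjusted p = 0.0488), were called by limma. AMT (1.33, adjusted p = 0.109) and ADIPOQ were not. The profiles they were picked by include the diet contrast, so higher values in HFHSD follow from the choice and are no separate result. PLIN1 was nearest to MAL2 (0.57), which was also above background on 0 of 3 CD arrays. CIDEB was nearest to ART4 (0.14), PLIN2 to FBXO21 (0.16), FITM1 to FOLR1 (0.18) and FITM2 to ABRA (0.41).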

How the data were processed

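Spot intensity on a linear scale was deposited for 9 arrays. Per the file headers, the authors ran version 10.7.3.1 of Agilent Feature Extraction. It subtracts background and spatial trend on each array and scales nothing between arrays. The deposited value table held the same intensity (0 spots differed on any array). Control and outlier spots were left out, spots of a probe averaged on the log2 scale, and 22 probes dropped. Of 43603 probes, 6891 were named through RefSeq accessions (Sscrofa11.1 table, names only). Of these, 17 were named only through the older annotation of slide 1. A gene other than the 7 is shown by its brightest tested probe of 2613 such genes.

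Probes were tested with limma 3.58.1 (R 4.3.3), lmFit and eBayes, two-sided, without covariates, with Benjamini-Hochberg adjustment. The fit was tested on simulated data. The files hold no mean spot signal, so normexp (offset 50) used median signals. Replicate numbers follow accession order and only name the arrays, each a separate animal. The 7 genes, the lists and the rule for named genes (members; 4 smallest p per list; 3 nearest profiles) were chosen with earlier results of these data known. Older symbols of 4 list genes, such as TUSC5 for TRARG1, were added after the files were read. With 1 probe per gene, no alternative over several probes was possible.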

Additional observations from a re-analysis of the deposited data

Results flagged for a closer look

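FITM2 had 1 HFHSD array far from the others: HFHSD 1, at -5.75, was the lowest of the 6, and its gap to the next array was 0.656 of the group's whole range, above the critical value of 0.625. FITM2 was not well above background on HFHSD 1. Without this array the difference was -1.35 (adjusted p = 0.0963). Chance alone gives such a gap in about 5% of groups, and 7 genes were examined.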

How the results depend on the processing

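Over all probes the count of calls, 345, was 115 with normexp and percentile scaling, 859 with normexp and quantile normalisation, 66 with no filter on dim probes, 735 and 887 for probes above background on all arrays or on every array of a group, 82 and 678 with slide as a fixed or random block, 1206 with array weights, 615 with a variance trend and 118 without slide 1. Leaving out single arrays gave 21 to 349. The share called higher, 56.2%, was 71.3% with normexp and percentile scaling, where the median of all probes was -0.17, 42.7% with dim values at the lowest signal above background and 38.1% for probes above background on all arrays.

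Of the 7 genes, 0 were called with normexp and percentile scaling, no filter, slide as a fixed block or without slide 1 (2 to 4 at an unadjusted p under 0.05), 2 with array weights and 0 to 2 without single arrays. CIDEA was 0.96 (adjusted p = 0.183), 1.49 (0.107), 1.63 (0.0890) and 1.54 (0.0761) in the first 4, 1.37 to 1.62 without single arrays, and 1.09 and 2.24 within slides 2 and 3. With normexp and percentile scaling PLIN1 turned to -0.15, PLIN2 to 0.050 and FITM1 to 0.19. Relative to that setting's median they were 0.017, 0.22 and 0.36, and CIDEA was 1.13. FITM2 was -1.67 with array weights and CIDEC 1.85 to 2.41 without single arrays. Within slide 2 CIDEB was -1.03, PLIN1 0.21, FITM1 -0.93 and FITM2 -0.89, and within slide 3 CIDEC was 1.09, PLIN2 0.20 and FITM1 0.15. On slide 2 FITM2 was not above background on any array, and PLIN1 was not on HFHSD 4 and CD 1. The causes were not tested. In the other fits that tested them, the 7 genes kept direction and side of the threshold. CIDEC, PLIN1 and FITM2 were not tested among probes above background on all arrays, PLIN1 and FITM2 among those above on every array of a group, and FITM2 without slide 1. No paired analysis was possible because the labels give no replicate numbers. The fits without slide 1 and with dim values at the lowest signal above background, and the PLIN1 bound without CD 1, were chosen after seeing the data. Lists without CD 1 had 0 calls each.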
